A study of Homo sapiens with 6 samples.

Results

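The genes described here set the pace of the G1 phase in Kasumi-1 cells, a human line of acute myeloid leukaemia with the RUNX1-RUNX1T1 fusion. They are the D-type cyclins CCND1, CCND2 and CCND3, the kinases CDK4 and CDK6, the CDK inhibitors CDKN1A, CDKN1B, CDKN2C and CDKN2D, and RB1. Their messenger RNA was measured on 3 arrays of cells given 20 nM homoharringtonine (HHT) for 24 h and 3 arrays of cells given vehicle for 24 h. All 6 arrays come from 1 cell line, grown in medium with serum, and HHT is a plant alkaloid that stops the ribosome from elongating. Members were taken as every probe set of the 3' expression array that the platform annotation gives to 1 of the 10 genes alone. This gave 22 of 54613 probe sets, for 9 genes out of 19775 with a probe set of their own. No probe set was annotated to CDKN2C alone, and it was not analysed here. The labels number the arrays of a group without saying that separate cultures were used, so each p-value reflects the spread between these arrays, possibly only technical.

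In G1, D-type cyclins bind CDK4 or CDK6 and switch the kinase on. The active kinase phosphorylates the RB1 protein, which then releases E2F transcription factors and lets the genes of DNA synthesis be transcribed. The INK4 inhibitors (CDKN2C, CDKN2D) bind the CDK4 and CDK6 kinases themselves, while CDKN1A (p21) and CDKN1B (p27) bind cyclin and CDK complexes and inhibit CDK2. D-type cyclins are short-lived proteins whose supply depends on continuing synthesis, and CDK6 and CCND3 are prominent in blood cells.

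Signals are given on the log2 scale as deposited, and a probe set was called at an adjusted p under 0.05 in limma. In HHT the transcripts of CCND1 and CDK4 fell, CCND1 to a 3.14-fold and CDK4 to a 2.76-fold lower signal. RB1 rose 1.60-fold. CCND3 and CDKN1B were not called, and the probe sets of CDK6 moved in different directions. Of the 20 member probe sets above the filter on dim signals (a mean of 4.80 over all arrays), 7 fell and 3 rose, which is 50% called. Of all 32768 probe sets tested, 46.3% were called, 23.0% higher and 23.3% lower, so the share called among the members lies near that of the array as a whole. A call joined to a fall of at least 1 on the log2 scale was less common, at 7.42% of all tested probe sets, and 3 of the 20 member probe sets had one, both of CCND1 and the one of CDK4. Groups did not overlap for 9 of the 20, or 45.0%, against 55.9% of all tested. The median change was -0.15 over the 20 and -0.09 over all tested. In a bulk culture, fewer cells in a given phase and less RNA per cell cannot be told apart.

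**Figure D1:**
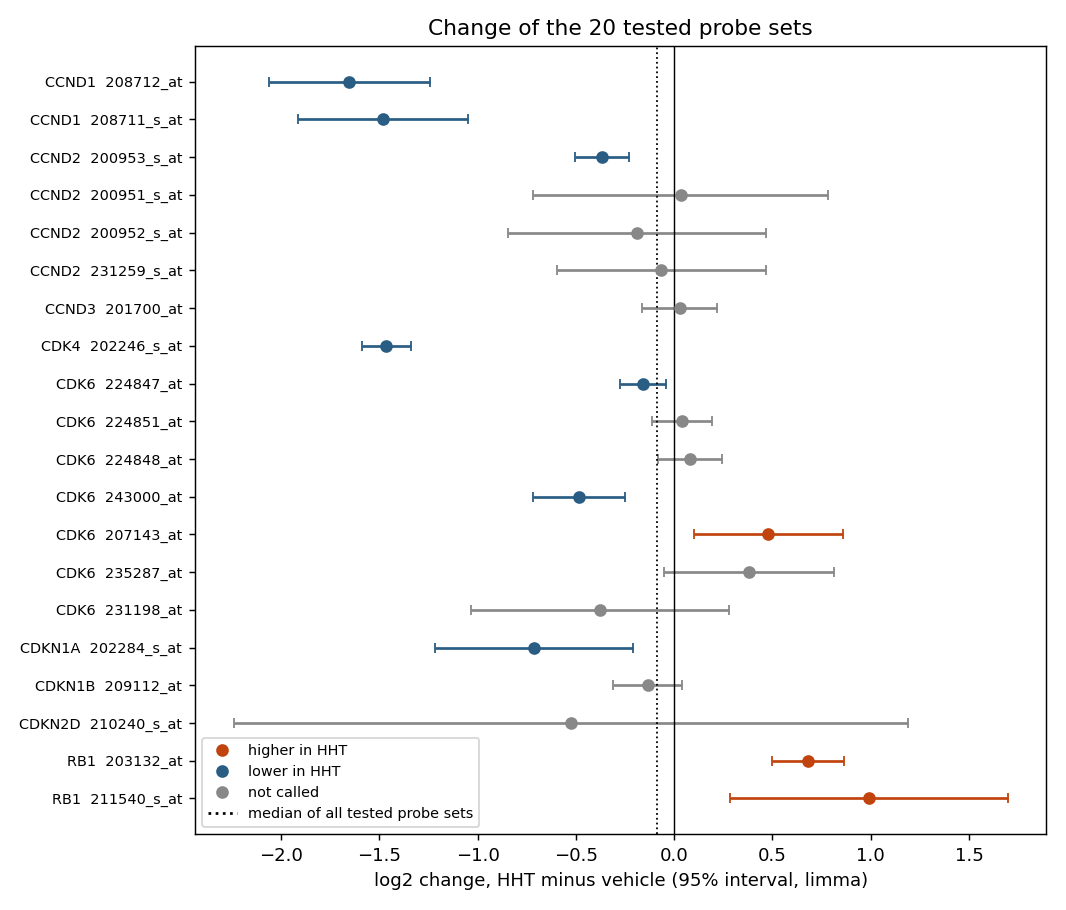
Log2 change, HHT minus vehicle, with its 95% interval from limma, for the 20 tested probe sets of 9 genes. The intervals of both CCND1 probe sets and of CDK4 lie below -1, those of both RB1 probe sets lie above 0, and most of the others lie close to the dotted line at -0.09, the median of all tested probe sets. The change of the brightest CDK6 probe set turned its sign under the other 3 scalings tried.

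Several features of the arrays bear on small changes. The 18 probe sets for hybridisation controls, added for the hybridisation step, averaged 11.70 ± 0.0598 in HHT and 11.98 ± 0.0282 in vehicle (SD, n = 3 each). They were lower in HHT by 0.28 (two-sided exact permutation p = 0.1, and 3 arrays against 3 allow no smaller one). Shifting the arrays to equal medians raised every change by 0.24, and shifting them to equal controls raised it by 0.28. The change of a member relative to the median probe set, by contrast, is the same under any such shift. Of the markers of such blasts, RUNX1T1, KIT, MPO and CD34 had group means from 8.03 to 14.83, while PROM1 lay below the filter level and CD33 was not analysed here. MPO, CD34 and KIT were called lower in HHT, while RUNX1T1 at -0.03 and ANPEP at -0.31 were not called. The summed signal of the 6 measured blast markers was 15.07 to 15.15 in HHT and 15.84 to 16.01 in vehicle. That of the 6 mature myeloid markers was 8.95 to 9.22 in HHT and 9.10 to 9.35 in vehicle, with CSF1R lower by 1.16 (adjusted p = 0.0197), ITGAM at -0.76, LYZ at -0.51 and CEBPE at 0.29 not called, and CD14 and FCGR3B below the filter level. That of the 4 erythroid and megakaryocyte markers was 8.14 to 8.33 in HHT and 8.44 to 8.77 in vehicle, and that of the 4 lymphoid markers was 11.75 to 11.93 in HHT and 11.65 to 11.69 in vehicle, set mainly by CD3D at 11.76 and 11.62. Among those 4, NKG7 averaged 6.74 in HHT and 4.06 in vehicle, the vehicle mean being below the filter level, while CD3E at -0.83 and MS4A1 at -0.42 were not called. The part of these shifts in the results below was not tested.

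Among the D-type cyclins, CCND1 fell the furthest. Its brighter probe set (208712_at) read 7.11, 7.06 and 7.14 on the HHT arrays, against 8.42, 8.73 and 9.12 on the vehicle arrays. Every HHT array lay below every vehicle array, and the HHT arrays were closer together. The change was -1.65 (SE 0.184, adjusted p = 3.04e-05), and 2.09% of all tested probe sets fell at least as far. The second CCND1 probe set (208711_s_at) read 6.56, 6.78 and 6.43 in HHT, against 8.16, 7.81 and 8.25 in vehicle. It fell by 1.48 (SE 0.194, adjusted p = 9.93e-05), again with no overlap. Both CCND1 probe sets were called lower under all 14 alternatives, with changes from -1.82 to -1.30 and from -1.61 to -1.06.

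CCND2 was measured by 1 bright and 3 dimmer probe sets. The bright one (200953_s_at) read 12.69, 12.67 and 12.83 in HHT, against 13.15, 13.03 and 13.11 in vehicle. It fell by 0.37 (SE 0.0613, adjusted p = 0.000567), a 1.29-fold lower signal with no overlap between the groups. The call was lost with equal medians, where the change was -0.13 (adjusted p = 0.389), and with the controls made equal, where it was -0.08 (adjusted p = 0.336). Relative to the median tested probe set it was -0.28. The 3 dimmer CCND2 probe sets, at 0.03 (200951_s_at), -0.19 (200952_s_at) and -0.07 (231259_s_at), were not called. Their intervals were wide, from -0.72 to 0.78 for the first of them, since its HHT arrays ran from 7.92 to 9.45. A fall as small as that of the bright probe set lies inside all 3 intervals.

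CCND3 had 1 probe set above the filter (201700_at). It read 9.99, 9.92 and 9.95 in HHT, against 9.87, 9.86 and 10.04 in vehicle. The groups overlapped, and the change of 0.03 had a 95% interval of -0.16 to 0.22 (adjusted p = 0.818). CCND3 was called higher only with equal hybridisation controls (0.31, adjusted p = 0.0188) among the 14 alternatives. The other CCND3 probe set (1562028_at) lay below the filter and was not tested. It read 6.10, 5.16 and 0.59 in HHT, against 2.25, 2.53 and 3.24 in vehicle, so that 1 HHT array lay below every vehicle array and the others above.

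The 3 cyclins were set against each other within each array, using the brightest probe set of each. This removes any shift of a whole array on the log2 scale, but not the effect of quantile normalization. After quantile normalization the changes were -1.67 for CCND1, -0.17 for CCND2 and -0.09 for CCND3. As deposited, the change of CCND1 was lower than that of CCND2 by 1.29 and lower than that of CCND3 by 1.68. The change of CCND2 was lower than that of CCND3 by 0.39. In these 3 pairs the offsets on the HHT arrays did not overlap those on the vehicle arrays. Each gave an exact permutation p of 0.1 (two-sided), the smallest possible with 3 arrays against 3, or 0.125 adjusted over the 5 pairs of genes compared here. Pairs were chosen with the changes known.

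**Figure D2:**
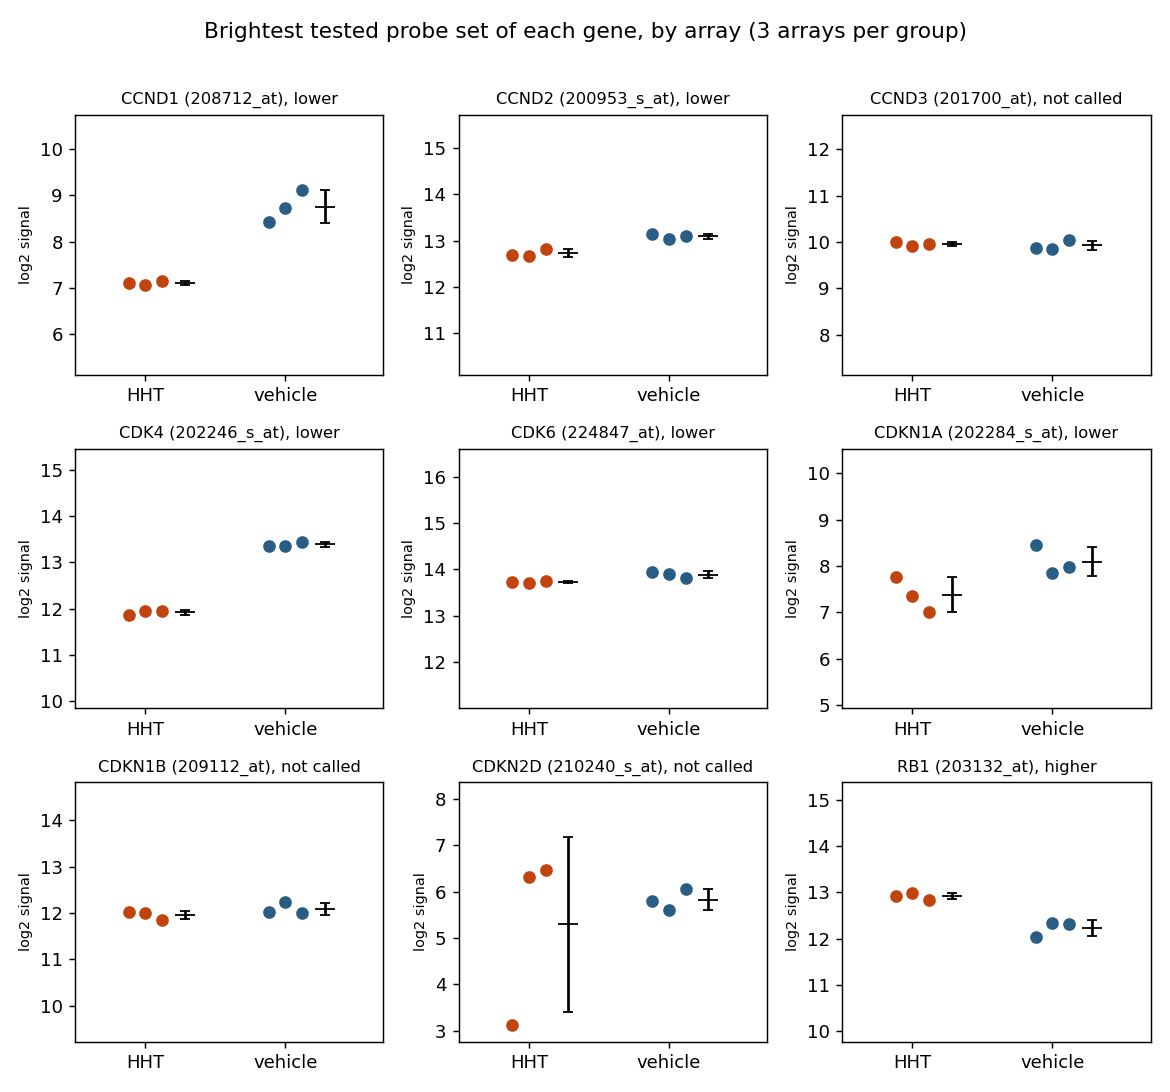
Log2 signal on each array for the brightest tested probe set of 9 genes, with HHT arrays in orange, vehicle arrays in blue, and bars for the mean and SD of 3 arrays. Each panel spans the same range on the log2 scale. CDK4 and CCND1 show the widest gaps, with CDK4 at 11.87 to 11.95 in HHT and 13.35 to 13.45 in vehicle, and CDKN2D has 1 HHT array at 3.11.

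CDK4, the kinase partner of the D-type cyclins in most tissues, had 1 probe set (202246_s_at). It read 11.87, 11.95 and 11.95 on the HHT arrays, against 13.36, 13.35 and 13.45 on the vehicle arrays. The SD within a group was 0.0481 in HHT and 0.0535 in vehicle, far less than the gap between the groups. CDK4 fell by 1.46 (SE 0.0561, adjusted p = 3.57e-08), and 3.34% of all tested probe sets fell at least as far. It was called lower under all 14 alternatives, with changes from -1.48 to -1.18. MYC, named in the series title and known to activate CDK4 transcription, fell by 4.40 on these arrays (SE 0.0958, adjusted p = 5.29e-09).

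MYC and MAX bind the E-box, whose letters are CACGTG on either strand. The 250 bases before the CDK4 start site are shown because they hold this motif 3 times, more than any other member's window. They lie at chr12:57752311-57752560 on the minus strand of GRCh38.p14, from RefSeq, are written 5′ to 3′, and have the E-boxes in capitals.
CDK4 promoter: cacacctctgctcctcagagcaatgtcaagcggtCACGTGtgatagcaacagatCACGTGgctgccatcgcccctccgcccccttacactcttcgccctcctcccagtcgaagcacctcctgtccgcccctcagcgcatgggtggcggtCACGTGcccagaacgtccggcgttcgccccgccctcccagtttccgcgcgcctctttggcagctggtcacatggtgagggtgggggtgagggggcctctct
The matches begin 216, 196 and 101 bases before the start site. Over the whole RefSeq window, from 250 bases before to 50 after the start, 33 of 35116 windows of all genes hold 3 or more matches (0.094%) and 7.26% hold at least 1. Windows were at hand for 7 of the 9 analysed genes, and for neither CCND1 nor CCND2, so CDK4 was not compared with these 2. The first of the 2 CDK6 windows holds 1 match, beginning at base 31 after the start, and the second holds none. The windows of CCND3, CDKN1A, CDKN1B, CDKN2D and RB1 hold no match, and the RB1 window starts inside the gene rather than at its first exon. No window of an analysed gene held TTCCCGC or TTGGCGC, letters like those of E2F sites, on either strand, against 6.55% and 3.04% of all windows. GGGCGG, like an SP1 site, was found on either strand 3 times in CDK4, 3 times in the first CDK6 window, 4 times in CDKN1A, 3 times in CDKN2D and once in CDKN1B, and 45.0% of all windows hold it. It occurs 5 and 4 times in 2 of the CCND3 windows. A match is a description of letters and shows no binding.

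CDK6, the other D-cyclin kinase, had 7 probe sets, which did not change alike. The brightest (224847_at) read 13.72, 13.70 and 13.74 in HHT, against 13.95, 13.89 and 13.80 in vehicle, without overlap. Its change of -0.16 (SE 0.0528, adjusted p = 0.0299) was a call as deposited, but the value was 0.20 and called higher after quantile normalization (adjusted p = 0.00323), and 0.08 and 0.12, not called, with equal medians and equal controls. The call was also lost without any 1 of the HHT arrays or without vehicle replicate 2 (adjusted p up to 0.109), with no filter (adjusted p = 0.0650) and with no variance trend (adjusted p = 0.168). Relative to the median tested probe set it was -0.07. The next 2 in brightness, 224851_at at 0.04 and 224848_at at 0.08, were not called, with intervals of -0.11 to 0.19 and -0.08 to 0.24. With equal controls both were called higher, at 0.32 (adjusted p = 0.00188) and 0.36 (adjusted p = 0.000821), and 224851_at also after quantile normalization, at 0.22 (adjusted p = 0.0217).

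Of the dimmer CDK6 probe sets, 243000_at read 8.81, 9.01 and 8.81 in HHT, against 9.31, 9.32 and 9.46 in vehicle. It fell by 0.49 (SE 0.105, adjusted p = 0.00310), a call lost with equal medians (-0.25, adjusted p = 0.192) and equal controls (-0.20, adjusted p = 0.183). In the opposite direction, 207143_at read 7.94, 8.48 and 8.48 in HHT, against 7.82, 7.76 and 7.88 in vehicle. It rose by 0.48 (SE 0.171, adjusted p = 0.0409), with HHT replicate 1 barely above the vehicle arrays. That call held under 6 of 14 alternatives and was lost when any array other than HHT replicate 1 was left out (adjusted p up to 0.154). The last 2 CDK6 probe sets, at 0.38 (235287_at) and -0.38 (231198_at), were not called, although 235287_at was called higher without HHT replicate 1 (0.58, adjusted p = 0.0224), after scaling to equal medians (0.62, adjusted p = 0.0449) or equal controls (0.67, adjusted p = 0.0111). The sources used here do not say which CDK6 transcripts each probe set reads.

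The change of CDK4 was lower than that of the brightest CDK6 probe set by 1.30, measured within arrays as deposited. After quantile normalization, which such offsets do not cancel, CDK4 changed by -1.33 and this CDK6 probe set by 0.20. The offset between the kinases was -1.80 ± 0.0511 in HHT and -0.50 ± 0.123 in vehicle (SD, n = 3 each), with no overlap (exact permutation p = 0.1, two-sided, 0.125 adjusted over 5 pairs). The pair used 1 of the 7 CDK6 probe sets and gives no order of the kinases' levels, as different probe sets are not on a common scale.

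CDKN1A, which encodes the CDK inhibitor p21, had 1 probe set (202284_s_at). It read 7.77, 7.35 and 7.01 in HHT, against 8.44, 7.85 and 7.98 in vehicle. The groups did not overlap, though HHT replicate 1 and vehicle replicate 2 nearly touched. CDKN1A fell by 0.71 (SE 0.226, adjusted p = 0.0244), a 1.64-fold lower signal. The sign was the same under all 14 alternatives, from -0.91 to -0.43, and the call under 8 of them. It was lost with equal medians (adjusted p = 0.0718), equal controls (adjusted p = 0.168), no variance trend (adjusted p = 0.0712), and without HHT replicate 2, HHT replicate 3 or vehicle replicate 1 (adjusted p = 0.0628, 0.0891 and 0.0971).

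CDKN1B, which encodes p27 and restrains CDK2 in resting cells, was bright on every array. It read 12.010, 12.004 and 11.845 in HHT, against 12.016, 12.244 and 12.006 in vehicle, and the groups overlapped. Its change was -0.14 (95% interval -0.31 to 0.04, adjusted p = 0.192). The sign turned with equal medians (0.10) and equal controls (0.15), and no alternative gave a call. Within arrays, the change of CDKN1A was lower than that of CDKN1B by 0.58, with overlapping offsets (exact permutation p = 0.2, two-sided, also 0.2 adjusted over 5 pairs).

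CDKN2D, the p19 member of the INK4 inhibitors, gave dim signals whose direction rested on 1 array. Its tested probe set (210240_s_at) read 3.11, 6.32 and 6.46 in HHT, against 5.80, 5.61 and 6.06 in vehicle. HHT replicate 1 lay far below the rest, while the other HHT arrays lay above all vehicle arrays. The change was -0.53 (95% interval -2.24 to 1.19, adjusted p = 0.610) with all arrays and 0.56 (adjusted p = 0.222) without HHT replicate 1. The second CDKN2D probe set (213586_at) lay below the filter and was not tested. It read 3.96, 4.59 and 2.13 in HHT, against 4.47, 4.87 and 5.05 in vehicle.

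RB1, the substrate that CDK4 and CDK6 inactivate, was the member with called increases in every probe set. The bright probe set (203132_at) read 12.93, 12.98 and 12.85 in HHT, against 12.04, 12.35 and 12.33 in vehicle. All HHT arrays lay above all vehicle arrays, and the change of 0.68 (SE 0.0826, adjusted p = 5.85e-05) was called under all 14 alternatives, from 0.58 to 0.96. As many as 16.7% of all tested probe sets rose at least as far, so a rise of this size was common on these arrays. The dim RB1 probe set (211540_s_at) read 6.89, 7.73 and 8.04 in HHT, against 6.32, 6.33 and 7.04 in vehicle. It rose by 0.99 (SE 0.318, adjusted p = 0.0256) although the groups overlapped, and the call held under 9 of 14 alternatives. It was lost with no variance trend (adjusted p = 0.0783) and without HHT replicate 2 or 3 or vehicle replicate 1 or 2 (adjusted p up to 0.113).

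**Figure D3:**
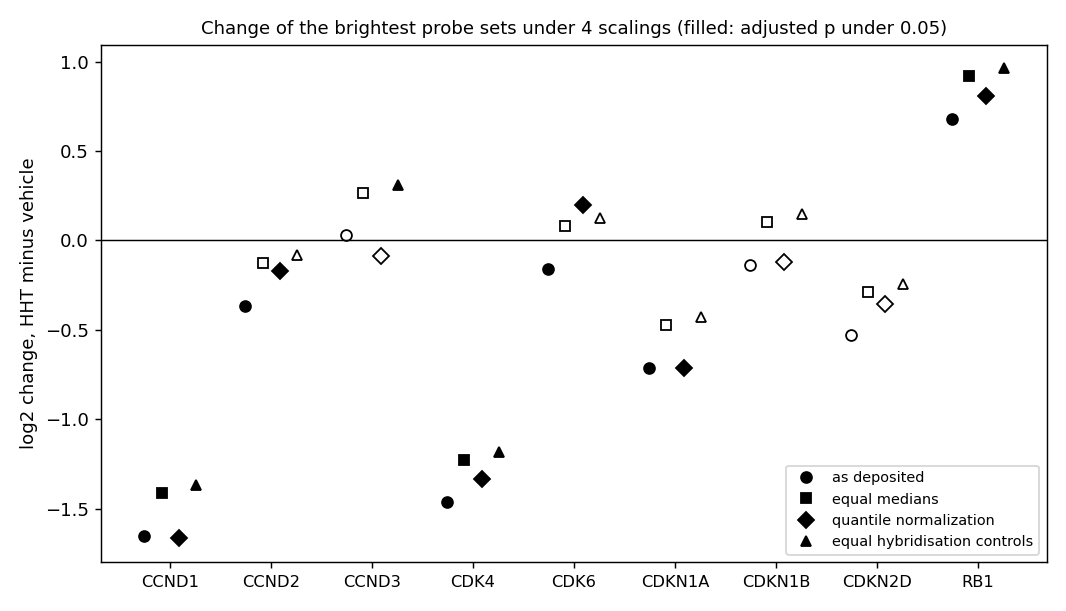
Log2 change, HHT minus vehicle, of the brightest probe set of 9 genes with the arrays scaled in 4 ways, with filled symbols for an adjusted p under 0.05. CCND1, CDK4 and RB1 were called in the same direction under each scaling, the CCND2 and CDKN1A calls were lost with equal medians and equal controls, and CCND3, CDK6 and CDKN1B changed sign between scalings.

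Genes that work beside the members were taken in 4 lists from general knowledge, 50 genes in all, each represented by its brightest single-gene probe set. Of the 46 tested, 12 rose and 17 fell, TFAP4 being counted among the latter although its HHT mean lay below the filter level. Of all 13572 genes tested, 53.8% were called, 29.6% higher and 24.2% lower, with a median change near 0.

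The list of RB family and E2F factors, taken by family, had 6 of 12 members lower and none higher, with a median of -0.40. The median was -0.21 without vehicle replicate 1, -0.16 with equal medians and -0.12 with equal controls, under which 1 and 2 members were called higher. TFDP1, the DNA-binding partner of E2F proteins, read 10.82, 10.88 and 10.97 in HHT, against 12.69, 12.62 and 12.68 in vehicle, and fell by 1.77 (SE 0.0634, adjusted p = 2.67e-08). Its other probe sets, 2 in number, fell too. E2F1, an activator of S-phase genes, averaged 7.05 ± 0.394 in HHT and 7.96 ± 0.241 in vehicle (SD, n = 3 each) and fell by 0.91 (SE 0.226, adjusted p = 0.00700), while its other tested probe set was not called. The others that fell, named after their values were seen, were E2F5, E2F6, E2F7 and E2F8. The E2F5 call was lost under each other scaling (adjusted p = 0.0715 to 0.181) and the E2F8 call with equal medians (adjusted p = 0.0944). Also named after their values were seen, the RB1 relatives RBL1 and RBL2, at 0.16 and 0.04, were not called as deposited. RBL1 was called higher with equal medians (0.40, adjusted p = 0.0239) and equal controls (0.45, adjusted p = 0.00119). RBL2 was called higher with equal controls (0.33, adjusted p = 0.0105). The brightest TFDP2 probe set, named likewise, was not called, at -0.10, although 2 dimmer ones were called higher.

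In the list of the CDK2 arm, CDK activation and the remaining inhibitors, all 9 tested members were called, 6 lower and 3 higher, with a median of -0.43. The median was -0.19 with equal medians and -0.15 with equal controls, each with 4 called lower. CCNE1, a cyclin that activates CDK2, read 9.37, 9.13 and 9.26 in HHT, against 10.75, 10.70 and 10.95 in vehicle, and fell by 1.55 (SE 0.0983, adjusted p = 6.41e-07). The others that fell, named after their values were seen, were CCNE2, CDK2, CCNA2, the phosphatase CDC25A and CCNH. The CDK2 and CCNH calls were lost with equal medians (adjusted p = 0.254 and 0.728) and equal controls (adjusted p = 0.234 and 0.937), and that of CCNH also after quantile normalization (adjusted p = 0.0767). CDKN2A, whose locus encodes the INK4 inhibitor p16, read 11.65, 11.67 and 11.75 in HHT, against 10.40, 10.26 and 10.35 in vehicle. It rose by 1.35 (SE 0.0690, adjusted p = 1.73e-07), and another of its probe sets rose too. The suffix of this probe set, _x_at, marks probes that may also bind other transcripts, and the same holds for the SKP2 probe set below. The other 2 that rose, likewise named after their values were seen, were CDK7 and MNAT1, subunits with CCNH of the CDK-activating kinase, at 0.58 and 0.82. CDKN1C and CDKN2B lay below the filter and were not tested.

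The list on assembly and turnover of these proteins was mixed, with 5 of 14 higher, 4 lower and a median of 0.08, or -0.05 from the means of each gene's probe sets. The median was 0.32 with equal medians and 0.36 with equal controls, each with 2 called lower, 0.04 after quantile normalization and 0.02 without vehicle replicate 2. SKP2, the ubiquitin ligase subunit that recognises p27, averaged 11.27 ± 0.177 in HHT and 12.93 ± 0.170 in vehicle (SD, n = 3 each). It fell by 1.65 (SE 0.103, adjusted p = 5.73e-07). The other members of that ligase complex on the list that fell, named after their values were seen, were SKP1, CUL1 and CKS1B, at -0.32, -0.60 and -0.31, while RBX1 rose by 0.28. The SKP1 and CKS1B calls were lost under each other scaling (adjusted p = 0.331 to 0.667 and 0.232 to 0.796), and the SKP1 change turned to 0.06 after quantile normalization. COPS5, a subunit of the signalosome that strips NEDD8 from such ligases, averaged 13.36 ± 0.0438 in HHT and 12.74 ± 0.102 in vehicle (SD, n = 3 each) and rose by 0.62 (SE 0.0624, adjusted p = 1.45e-05).

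Transcription regulators of the members rose in 4 of 11 cases, with a median of 0.14. The 1 counted as lower, TFAP4, had an HHT mean below the filter level. The median was 0.38 with equal medians, 0.43 after quantile normalization and 0.42 with equal controls, with 6, 5 and 8 genes called higher. FOXO1, one of the factors known to raise CDKN1B transcription, read 8.39, 8.17 and 8.24 in HHT, against 7.45, 7.31 and 7.30 in vehicle, and rose by 0.92 (SE 0.147, adjusted p = 0.000419). The other 3 that rose, named after their values were seen, were FOXO3, SP3 and ZBTB17, at 0.73, 0.86 and 0.59. FOXO1, SP3 and ZBTB17 each had 1 other tested probe set that was not called. FOXO1 and SP3 also had 1 more that was called higher, and ZBTB17 had none. TFAP4, a MYC target and repressor of CDKN1A, averaged 4.33 ± 0.819 in HHT, below the filter level, and 6.47 ± 0.359 in vehicle (SD, n = 3 each). Its HHT arrays read 3.50, 5.14 and 4.36, with only HHT replicate 2 above the filter level. TFAP4 passed the filter through its high vehicle arrays, so its call lends no support to the counts that hold it. With HHT arrays under the filter level set to that level, TFAP4 was at least 2.95-fold lower in HHT, a bound with no test. KLF4 lay below the filter and was not tested.

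**Figure D4:**
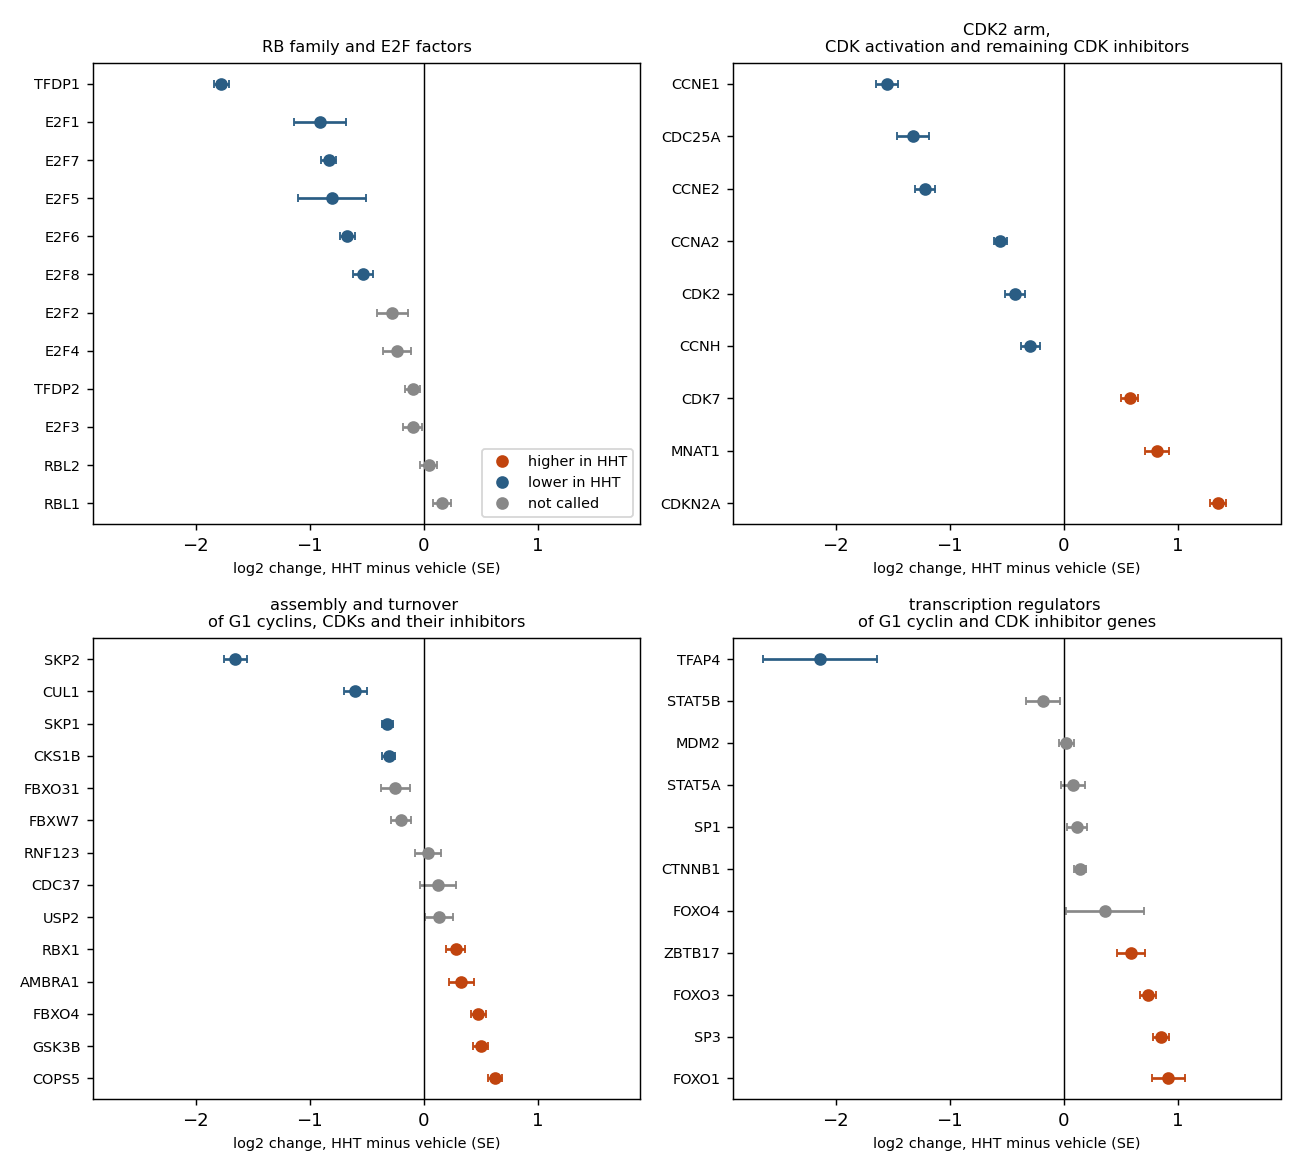
Log2 change, HHT minus vehicle, with its SE from limma, for the 46 tested genes of 4 lists. In the upper panels most called genes are lower in HHT, led by TFDP1 at -1.77 and CCNE1 at -1.55, with CDKN2A at 1.35 on the other side, and in the lower right panel 4 genes were called higher. TFAP4 is drawn at -2.14, a fitted value that rests on an HHT mean below the filter level, for which only the bound of 2.95-fold holds.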

How the data were processed

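RNA was biotin-labelled with a 3' in vitro transcription kit per the labels' protocols. The authors deposited log2 signals for each probe set and array. The submitters' processing notes name MAS5, with no version, and no source used here gives a genome build. The 2% trimmed mean of the antilog signals was 500.06 to 500.07 on all 6 arrays, so they were scaled alike before deposit. No pseudocount was added in the main analysis. Precision is limited by the number of arrays.

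The 62 control probe sets and the 40% of the others with the lowest mean were left out, and 32768 were tested. Symbols came from the platform annotation, which gives 41091 probe sets 1 gene, 1801 several and 11721 none. Of the first, 41037 were updated through RefSeq. HHT was set against vehicle in limma 3.58.1 (R 4.3.3, lmFit and eBayes with a variance trend), with Benjamini-Hochberg adjustment over all tested probe sets. The test was tried on simulated data.

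Members, lists and pairs were chosen with earlier results of these data known. Named were all members, MYC, and in each list the 2 called genes with the largest change and those without a tested probe set, apart from 1 that is not reported here. Other list genes were named after their values were seen, as the text says beside them. The 14 alternatives counted for a probe set were refits. Among them were equal medians, quantile normalization, equal hybridisation controls, a pseudocount of 64, no filter and a 60% filter. The rest were no variance trend, a replicate block and each array left out in turn. Stricter thresholds and, for lists, genes averaged over their probe sets were tried as well and are not among the 14.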

Additional observations from a re-analysis of the deposited data

How the results depend on the processing

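The falls of CCND1 and CDK4 and the rise of the bright RB1 probe set were called in the same direction under all 14 alternatives. The 8 list genes named by rule kept their call in all 111 fits that tested them, TFAP4 through a mean below the filter level in HHT. These 8 had been picked for the largest called changes in these same data, so stable calls were partly fixed by the choice. Of 15184 called probe sets, 5057 also changed by at least 1 on the log2 scale, 2627 higher and 2430 lower, and scaling to equal medians left 4142 lower and to equal hybridisation controls 4056. Calls higher in HHT made up 49.6% as deposited, 70.3% with equal medians and 72.9% with equal controls. The 10 member calls became 6 with no variance trend, 6 at an adjusted p under 0.01, 3 with a log2 change of at least 1, and 6 to 10 with 1 array left out. The 3 higher ones became 7 with equal controls, 1 with no variance trend, 1 at the stricter p, 0 with the log2 threshold, and 1 to 4 with 1 array left out. The 7 lower ones became 3 with equal medians, equal controls or the log2 threshold, and 5 to 7 with 1 array left out. The 5 called transcription regulators, TFAP4 counted among them, became 9 with equal controls and 3 from the means of probe sets. Signs turned for CCND2 probe sets after quantile normalization (-0.038 for 200951_s_at, 0.010 for 231259_s_at), with equal medians (0.049 for 200952_s_at, 0.17 for 231259_s_at) and with equal controls (0.094 and 0.22 for the same probe sets). They turned for CCND3 after quantile normalization (-0.086), for the brightest CDK6 probe set with equal medians (0.080), quantile normalization (0.20) and equal controls (0.12), and for CDKN1B with equal medians (0.10) and equal controls (0.15). With 1 array left out, the ranges that crossed 0 were -0.32 to 0.45, -0.48 to 0.15 and -0.23 to 0.13 for those CCND2 probe sets in the order 200951_s_at, 200952_s_at and 231259_s_at, -0.0058 to 0.087 for CCND3, -0.023 to 0.11 for CDK6 224851_at and -1.11 to 0.56 for CDKN2D. Apart from the scalings' own shifts, the cause was not tested. Deviations of same-numbered HHT and vehicle arrays correlated at 0.07, -0.01 and 0.05, and those of differently numbered arrays at -0.09 to 0.04. Such small values do not decide whether the numbers pair the arrays. A replicate block gave 15468 calls and again 10 among the members. Dim probe sets had the widest intervals.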

Other observations

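CDK4 is 1 of 22 tested genes with 3 or more E-boxes (CACGTG) in a RefSeq promoter window, a grouping made after the CDK4 values were seen. Of these 22 genes, 8 fell (36.4%) and 5 rose (22.7%), with a median log2 change of -0.15. Of 117 genes with 2 matches in a window, 33.3% fell and 24.8% rose, with a median of -0.11. Of 1203 genes with 1 match, 33.9% fell and 26.1% rose, also with a median of -0.11. Of 9581 genes with none, 23.4% fell and 31.5% rose, with a median of 0.03. Over all 10923 tested genes with a window, 24.7% fell and 30.9% rose. These are descriptions with no test, and genes are not independent replicates. The fall of CDK4, at -1.46, was far larger than the median of its group.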
